A study of Rattus norvegicus with 30 samples.

Results

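The stomach was compared 1 h after a single intraperitoneal dose of irinotecan, 200 mg/kg, with the stomach of rats that received none. The comparison used 4 of the 30 arrays of the study, 2 at 1 h and 2 at 0 h, chosen by tissue and time as the sample titles give them. All rats were female DA rats aged 10 weeks, 30 in all and 6 at each of 5 times, and each array held RNA from whole stomach pooled from 3 rats, so that p-values measure the spread between pools. Treated rats were injected under light halothane anaesthesia. No source used here says whether the rats at 0 h were sham injected or anaesthetised, so drug, injection and anaesthetic cannot be told apart. Expression was measured on Affymetrix rat genome arrays, and the values are log2 signals, a scale on which a difference of 1 is a doubling.

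Irinotecan is a prodrug whose active form traps topoisomerase I on DNA, so that replication and transcription run into broken strands. Cells that meet a sudden stimulus of almost any kind first transcribe immediate early genes, whose induction needs no new protein, and many of these encode transcription factors or proteins that switch signalling off again. Other fast programmes respond to glucocorticoid hormone, to cAMP, or to stalled protein synthesis through the transcription factor ATF4, and p53 drives a further set after DNA damage.

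The labelled tissue carried its defining markers in the 4 arrays. Pgc, the chief cell pepsinogen, lay between 14.16 and 14.30, Gkn1 of surface mucous cells between 13.98 and 14.17, and Atp4b, a subunit of the parietal cell proton pump, between 13.15 and 13.51. Replicate pools correlated at 0.989 (0 h) and 0.991 (1 h) over probe sets. The stomach pools at 24 h and 72 h were less alike (0.970 and 0.947), and they enter the shared estimate of spread in the fit of 10 stomach arrays. At 72 h the list median of pancreatic acinar markers was 13.15 in replicate 1 and 8.50 in replicate 2. That of liver markers was 12.17 and 6.94. Squamous markers differed between the 0 h pools, with list medians of 7.21 and 9.95, against 8.56 and 8.25 at 1 h. The gap between 3′ and 5′ control probe sets of GAPDH, a sign of RNA quality, was 0.01 and -0.06 at 0 h and 0.29 and 0.10 at 1 h. The part of these differences in the results below was not tested.

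Few probe sets passed the test at 1 h in the fit of all stomach arrays, and those that did had all risen. Of 31042 probe sets 5 were called at an adjusted p under 0.05 (0.0161%, limma with Benjamini-Hochberg adjustment), 5 higher and 0 lower. The called genes were Chac1, Rhob, Nr4a1 and Pim3, and the other called probe set has no single gene symbol (9.48 and 9.45 against 10.98 and 10.94). Taken by brightest probe set, 4 of 14217 genes were called (0.0281%). At an unadjusted p under 0.05 there were 1776 probe sets (5.72%), 987 higher (3.18%) and 789 lower (2.54%), and the smallest adjusted p among lower probe sets was 0.0902. Differences of at least 2-fold were seen for 35 probe sets upwards and 30 downwards. With only the 4 arrays compared 27 probe sets were called, 4 of them lower. With all 30 arrays in 1 fit 77 were called, 15 of them lower, and with quantile normalization 3, 0 of them lower. The small count therefore does not show how many transcripts had changed, or that none had fallen.

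The count depended on the arrays used. Leaving out any 1 of the 4 arrays (0 h replicate 1 or 2, 1 h replicate 1 or 2) left 0 calls, with 846 to 1201 probe sets at an unadjusted p under 0.05. A fit of the 6 stomach arrays at 0, 1 and 6 h, chosen after seeing the data, called 70 probe sets (0.226%), 45 higher and 25 lower, all 5 of the first fit among them. For changes in the stomach, "rose" and "fell" are kept for the fit of 10 arrays, and named genes called in the fit of 6 arrays are given as such.

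**Figure D1:**
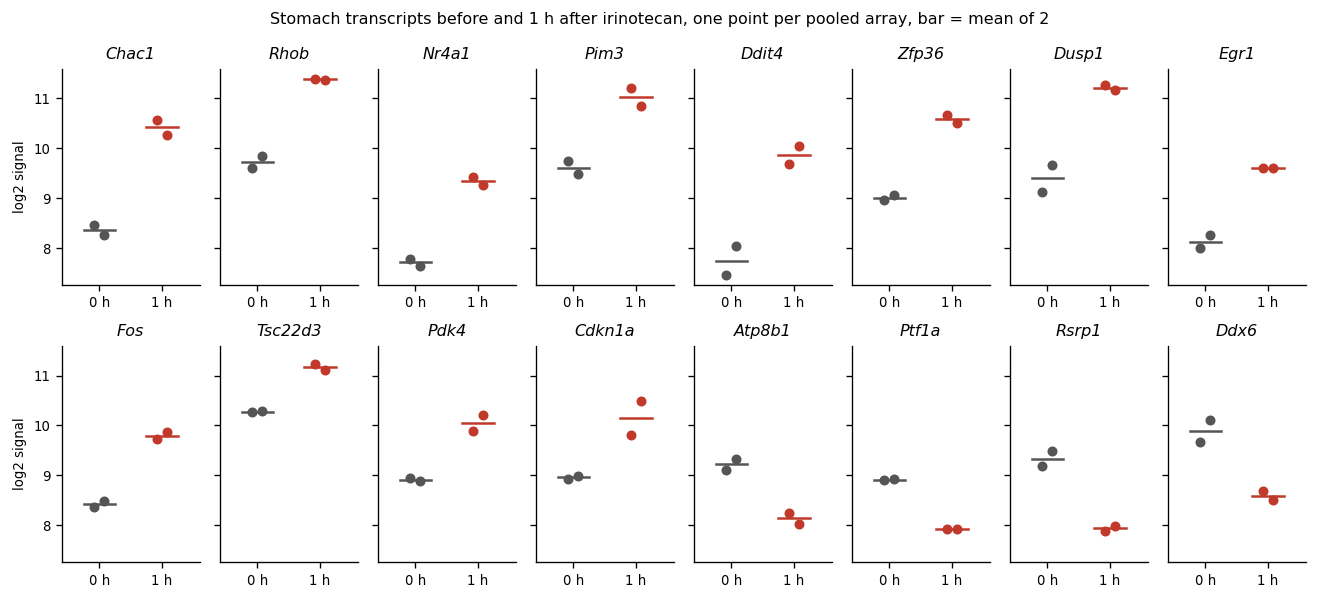
Log2 signal (y axis) of 16 genes in the 2 pools at 0 h (grey) and the 2 at 1 h (red), 1 point a pool, with a bar at each mean. The 1 h pools lie above the 0 h pools for the first 12 genes, from Chac1 (8.47 and 8.27 against 10.57 and 10.27) to Cdkn1a, and below them for Atp8b1, Ptf1a, Rsrp1 and Ddx6.

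**Figure D2:**
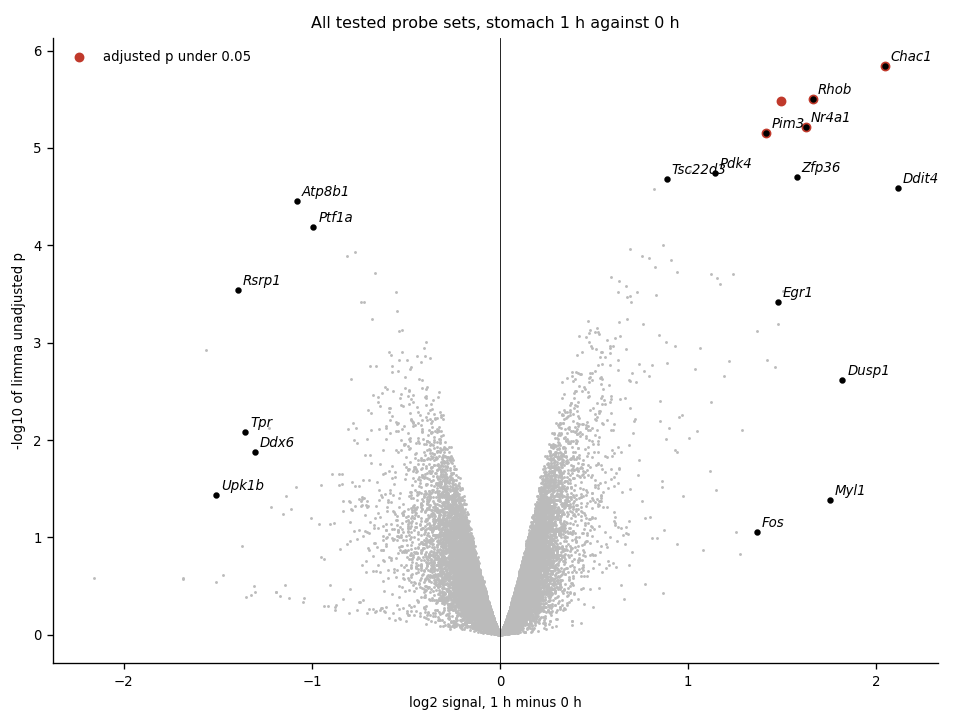
Difference in log2 signal between 1 h and 0 h (x axis) against -log10 of the unadjusted limma p (y axis) for 31042 probe sets, with the 5 called ones in red. All 5 called probe sets lie on the right, and the lower probe sets with the smallest p are those of Atp8b1 (-1.08) and Ptf1a (-0.99).

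Because the 4 called genes moved together, the 250 bases before the start of each (RefSeq, GRCr8) are shown, 5′ to 3′ on the gene's strand. Capitals show matches to some of the searched motifs on either strand. The motifs marked are TGACG, the core of the cAMP response element, and TTNCATCA, the core of the ATF4 composite site. GGGCGG, also searched, is left in lower case. The windows are chr3:126795881-126796130 (plus strand), chr6:37085205-37085454 (minus strand), chr7:134259888-134260137 (plus strand) and chr7:121832795-121833044 (plus strand).
Chac1: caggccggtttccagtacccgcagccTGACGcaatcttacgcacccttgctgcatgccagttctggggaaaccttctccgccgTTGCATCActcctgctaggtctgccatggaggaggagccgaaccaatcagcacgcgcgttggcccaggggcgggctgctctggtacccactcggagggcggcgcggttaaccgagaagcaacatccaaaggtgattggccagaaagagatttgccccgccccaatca
Rhob: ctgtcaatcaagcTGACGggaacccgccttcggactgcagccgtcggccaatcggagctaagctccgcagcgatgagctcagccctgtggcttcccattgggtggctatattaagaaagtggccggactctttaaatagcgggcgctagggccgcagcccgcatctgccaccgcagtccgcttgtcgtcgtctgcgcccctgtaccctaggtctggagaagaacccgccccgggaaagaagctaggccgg
Nr4a1: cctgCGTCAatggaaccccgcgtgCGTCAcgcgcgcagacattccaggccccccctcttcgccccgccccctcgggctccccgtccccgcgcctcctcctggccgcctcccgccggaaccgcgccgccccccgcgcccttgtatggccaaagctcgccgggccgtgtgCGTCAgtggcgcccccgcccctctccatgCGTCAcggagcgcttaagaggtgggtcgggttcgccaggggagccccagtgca
Pim3: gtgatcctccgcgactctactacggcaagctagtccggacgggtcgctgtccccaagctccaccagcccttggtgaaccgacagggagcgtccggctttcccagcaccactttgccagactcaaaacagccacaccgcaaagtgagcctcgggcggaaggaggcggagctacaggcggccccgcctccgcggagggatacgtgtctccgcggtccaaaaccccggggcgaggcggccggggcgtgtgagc
TGACG occurred in 3 of the 4 windows, 4 times in that of Nr4a1 and 0 times in that of Pim3, against 18.2% of 33465 promoters of the same length. It also occurred in 7 of the 13 matched promoters of the 15 highest genes and in 6 of 12 for the 15 lowest, so it was present among low genes too. TTNCATCA occurred in the Chac1 window, in 2 of the 13 and 0 of the 12, and in 3.4% of all promoters. The full element TGACGTCA, which contains TGACG, was in 0 of the 4, in 1 of the 13 and 2 of the 12, and in 1.59% of all, and GGGCGG, the GC box, was in all 4, in 10 of the 13 and 4 of the 12, and in 30.5% of all. The CArG box, bound by serum response factor, was in 0 of the 4 and in 2 of the 13, Egr1 and Zfp36, and in 0 of the 12, against 1.5% of all promoters. TGANTCA, the AP-1 site, was in 0 of the 4, the 13 and the 12 and in 6.34% of all, and CACGTG, the E-box, was in 0 of the 4, in 3 of the 13 and 1 of the 12, and in 5.59%. These are matches of letters, not measured binding.

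Chac1, an enzyme that degrades glutathione and a known ATF4 target, had the smallest p. Its signal was 8.47 and 8.27 in the 0 h pools and 10.57 and 10.27 in the 1 h pools. It rose by 2.05 ± 0.17 (SE, n = 2 against 2), or 4.13-fold (adjusted p = 0.0343). Among 30 genes of the ATF4 list it was the only one called. The members of this and the other lists were chosen with earlier results of these data known. Their shares beside those of all genes are therefore description, not independent evidence. A further 6 were higher and 0 lower at an unadjusted p under 0.05 (7 of 30 with Chac1, against 3.87% of 14217 genes, each taken by its brightest probe set), and the list median was 0.18 against 0.004 for all genes. They included Ddit4, an inhibitor of the growth kinase complex mTORC1, with 7.46 and 8.04 against 9.68 and 10.05, a difference of 2.12 ± 0.25 (4.33-fold, adjusted p = 0.0738). Ppp1r15a, which restores translation by dephosphorylating eIF2 alpha, differed by 0.74 ± 0.16, Atf4 itself by 0.54 ± 0.14, Trib3 by 0.47 ± 0.09 and Cebpb by 1.05 ± 0.30, with adjusted p from 0.404 to 0.713. In the fit of 6 arrays Chac1, Ddit4 and Ppp1r15a were called.

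Rhob encodes a small GTPase of endosomes that is transcribed within minutes of growth factors or genotoxic stress. It had 9.60 and 9.84 at 0 h and 11.40 and 11.37 at 1 h, and rose by 1.66 ± 0.15 (3.16-fold, adjusted p = 0.0343). Pim3, a serine/threonine kinase, had 9.74 and 9.48 against 11.21 and 10.84 and rose by 1.41 ± 0.14 (2.66-fold, adjusted p = 0.0439). Both stood on the list of feedback phosphatases and signalling inhibitors. Of its 28 members 9 were higher and 1, Rnd3 (-0.48), was lower at an unadjusted p under 0.05 (3.87% and 2.54% of all genes). In 15 members both 1 h pools lay above both 0 h pools (21.7% of all genes) and in 1 below, 25 of the 28 differences were above 0, and the median was 0.14. Dusp1, a phosphatase that inactivates MAP kinases, had 9.12 and 9.68 against 11.26 and 11.17 and differed by 1.82 ± 0.42 (adjusted p = 0.54). Errfi1, an inhibitor of the EGF receptor, differed by 1.42 ± 0.30 and Gem, a GTPase that restrains calcium channels, by 1.46 ± 0.32. Those 3 genes were called in the fit of 6 arrays together with Rhob and Pim3.

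Nr4a1, an orphan nuclear receptor and immediate early gene, had 7.79 and 7.65 against 9.43 and 9.26 and rose by 1.63 ± 0.16 (3.08-fold, adjusted p = 0.0439). The immediate early list, chosen with the same knowledge of these data, stood high as a whole. Of 27 members 14 were higher and 0 lower at an unadjusted p under 0.05 (3.87% and 2.54% of all genes), 22 had both 1 h pools above both 0 h pools (21.7% of all genes), and the median was 0.56. Egr1, a zinc finger factor, had 7.99 and 8.27 against 9.60 and 9.61, a difference of 1.48 ± 0.25 (adjusted p = 0.286). Klf2 differed by 1.24 ± 0.19 and Myc by 0.69 ± 0.10. These 3 genes were called with Nr4a1 in the fit of 6 arrays, where 0.204% of all genes were called higher and 0.0352% lower. The 4 dimmer probe sets of Klf2 differed by -0.045, 0.007, 0.343 and 1.065. Among other members Ier2 differed by 0.63, Bhlhe40 by 0.64, Nr4a2 by 0.85, Jun by 0.95 and Atf3 by 0.56, none of them called in the fit of 10 arrays, and a second probe set of Jun (1.17) was called in the fit of 6.

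Fos, the partner of Jun in the AP-1 complex, had 8.38 and 8.50 at 0 h and 9.73 and 9.87 at 1 h, with no overlap, and a difference of 1.36 ± 0.71 (adjusted p = 0.909). Its 24 h pools, which enter the same SE, lay at 6.84 and 9.35. A dimmer probe set of Fos differed by -0.09.

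Glucocorticoid-induced genes had the highest median of the 23 lists, 0.81. Over the alternative settings listed below that median ran from 0.474 to 0.91. The ranges of the immediate early list, 0.445 to 0.611, and the cAMP list, 0.355 to 0.581, overlapped it. Of 24 members of the glucocorticoid list 14 were higher and 0 lower at an unadjusted p under 0.05 (3.87% and 2.54% of all genes). In the fit of 10 arrays 0 were called. Tsc22d3, which encodes the anti-inflammatory protein GILZ, had 10.26 and 10.29 against 11.22 and 11.11, a difference of 0.89 ± 0.10 (adjusted p = 0.0716). Pdk4, a kinase that shuts off pyruvate dehydrogenase, had 8.95 and 8.89 against 9.90 and 10.22, a difference of 1.14 ± 0.13 (adjusted p = 0.0716). In the fit of 6 arrays 8 members were called higher (0.204% of all genes), Tsc22d3, Pdk4, Per1, Klf9, Ddit4, Dusp1, Errfi1 and Nfkbia. Klf9 differed by 0.91 ± 0.14, with dimmer probe sets at -0.21 and 0.09, and Nfkbia, the inhibitor that holds NF-kB in the cytoplasm, by 1.15 ± 0.18. Cebpd, a transcription factor that many stimuli induce, differed by 1.29 ± 0.37. Fkbp5, a chaperone that restrains the glucocorticoid receptor, had 9.20 and 8.60 against 9.36 and 9.52, a difference of 0.54 ± 0.22 (adjusted p = 0.871). Not all members moved: Mt2A, a metallothionein, differed by 0.36 and Angptl4, a lipase inhibitor, by 0.20, at adjusted p of 0.932 and 0.933. Several members are shared with other lists, since 31 of the 456 measured genes stand on more than 1.

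The cAMP and CREB list had 7 of 19 members higher and 0 lower at an unadjusted p under 0.05 (3.87% and 2.54% of all genes), with a median of 0.58. They included Nr4a1, Dusp1, Per1, Nr4a2 and Sik1, a kinase that restrains CREB coactivators (0.58 ± 0.14). Genes kept on by FoxO when insulin is low had 8 of 21 higher and 1 lower, against the same shares of all genes, with a median of 0.31. Beside Pdk4 these were led by Txnip, which blocks glucose uptake (12.02 and 12.15 against 13.00 and 12.82, a difference of 0.83 ± 0.14, adjusted p = 0.276), Foxo4 (0.47), Klf15 (0.88) and Irs2 (0.50). Of the clock list 4 of 20 were higher and 1, Dbp (-0.30), was lower, against the same shares, with a median of 0.08. Per1 differed by 0.73 ± 0.12 and Usp2, a deubiquitinase, by 1.12 ± 0.18, both called in the fit of 6 arrays. No source used here gives the hour of killing, so clock time and treatment cannot be told apart.

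Zfp36, which encodes tristetraprolin, a protein that speeds the decay of AU-rich mRNAs, had 8.96 and 9.06 against 10.66 and 10.50, a difference of 1.58 ± 0.18 (2.98-fold, adjusted p = 0.0716). It led a list of 12 mRNA decay and translation brakes, of which 4 were higher and 0 lower at an unadjusted p under 0.05 (3.87% and 2.54% of all genes). Zfp36 and Tob2 (0.82 ± 0.13) were called in the fit of 6 arrays. The remaining genes among the 15 highest were Adamts1, a secreted protease (1.50 ± 0.25), the stress sensors Gadd45g (1.48 ± 0.28) and Gadd45b (1.36 ± 0.26), and Myl1. Myl1, a fast skeletal muscle myosin light chain, had 5.66 and 5.56 against 7.09 and 7.63 (adjusted p = 0.871). The fit of 6 arrays called Adamts1, Gadd45g, Gadd45b and Myl1 (adjusted p from 0.00816 to 0.0214). Of 9 skeletal muscle markers 5 had both 1 h pools above both 0 h pools and 0 below (21.7% and 20.0% of all genes). Their list median was 0.28. The log2 of their summed signal was 12.10 and 12.17 at 0 h and 12.45 and 12.45 at 1 h. Its brightest member was Myh1, at 11.6 and 11.4 against 11.8 and 11.7, so that the sum follows Myh1 more than the other markers. Of 10 smooth muscle markers 4 were above and 0 below, against the same shares of all genes. Their summed signal ran from 15.15 to 15.53 at 0 h and from 15.50 to 15.73 at 1 h. Of 10 macrophage markers 4 were below and 0 above (20.0% and 21.7% of all genes), with a median of -0.30. The part of these cell types in the results was not tested, and in whole tissue fewer cells of a type and less RNA per cell cannot be told apart.

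**Figure D3:**
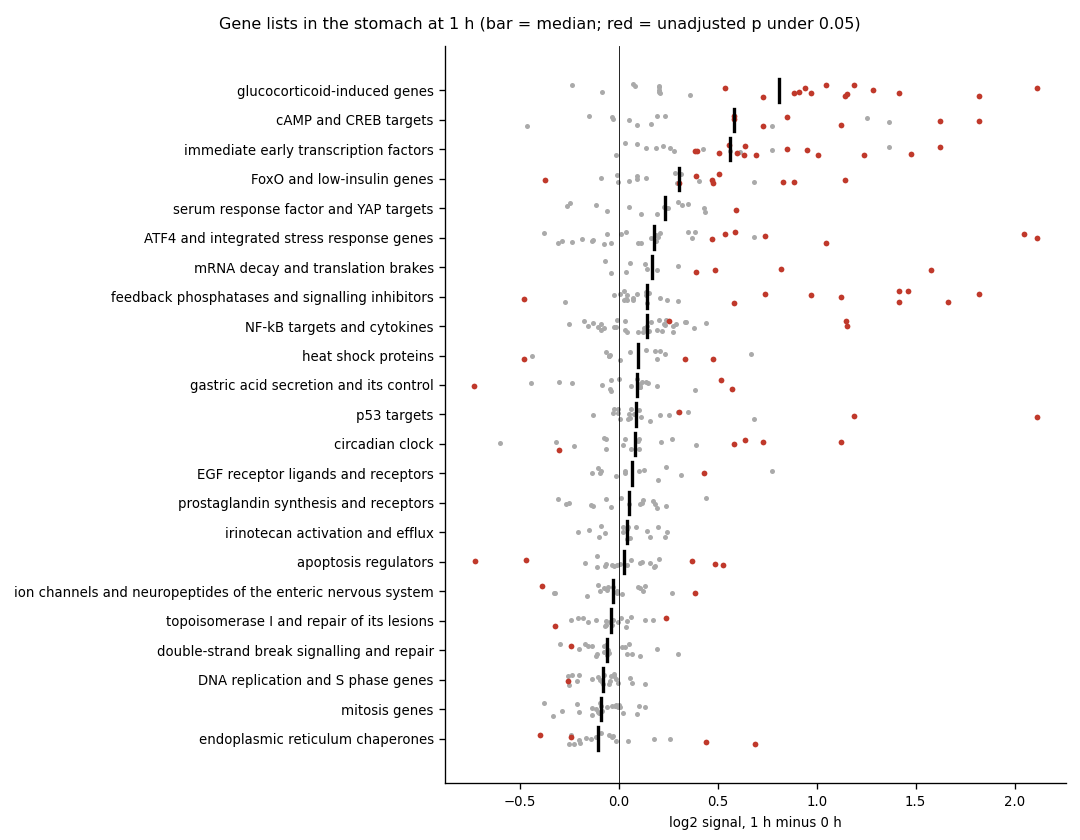
Difference in log2 signal between 1 h and 0 h (x axis) for each measured member of 23 gene lists (rows, ordered by median), 1 point a gene, with a black bar at the median and red points at an unadjusted p under 0.05. The glucocorticoid (0.81), cAMP (0.58) and immediate early (0.56) lists stand highest, and endoplasmic reticulum chaperones (-0.10) and mitosis genes (-0.09) lowest.

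Genes tied to the drug's target and to DNA damage had list medians between -0.06 and 0.09. Of 22 p53 targets 3 were higher (3.87% of all genes) and 0 lower at an unadjusted p under 0.05, and 8 had both 1 h pools above both 0 h pools (21.7% of all genes) and 0 below. Cdkn1a, the p53-induced inhibitor of cyclin-dependent kinases, had 8.93 and 8.99 against 9.81 and 10.50, a difference of 1.19 ± 0.27 (adjusted p = 0.54), with a dimmer probe set at -0.01. Cdkn1a and Ddit4 are also on the glucocorticoid list, and the other higher member was Sesn1 (0.31). Mdm2, the ubiquitin ligase of p53, had 8.62 and 8.80 against 8.69 and 8.83, and Ccng1, a p53-induced cyclin, had 9.95 and 9.70 against 9.95 and 9.90, so that the groups of both genes overlapped.

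Top1, the target of irinotecan, had 9.66 and 9.63 against 9.41 and 9.39, a difference of -0.24 ± 0.17 (adjusted p = 0.956). Of 20 genes for topoisomerase I and the repair of its lesions 1, Ercc4 (0.24), was higher and 1, Aptx (-0.32), lower at an unadjusted p under 0.05. Over all genes these shares were 3.87% and 2.54%. Of 23 genes of double-strand break repair 0 were higher and 1, Xrcc5 (-0.24), was lower, while 11 had both 1 h pools below both 0 h pools (20.0% of all genes) and 4 above. Of 17 genes of irinotecan activation and efflux 0 passed an unadjusted p of 0.05, and Abcg2, an efflux pump of the active drug, differed by 0.24 ± 0.13. Of 24 mitosis genes 0 passed an unadjusted p of 0.05, with Ccnb1, the mitotic cyclin, at -0.38 ± 0.22. Of these genes 8 had both 1 h pools below and 4 above both 0 h pools (20.0% and 21.7% of all genes). Of 22 replication genes 1, Rfc4 (-0.26), was lower; 10 had both 1 h pools below (20.0% of all genes) and 1 above, with a median of -0.08 that turned to 0.001 without 0 h replicate 1. The mitosis median of -0.09 turned to 0.011 without the same array.

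Genes of gastric function and injury gave few differences at the test's threshold. Of 21 genes of acid secretion 2 were higher and 1 lower at an unadjusted p under 0.05 (3.87% and 2.54% of all genes). Atp4a, the catalytic subunit of the proton pump, had 13.02 and 12.92 against 13.55 and 13.42, a difference of 0.52 ± 0.11 (adjusted p = 0.509), while the other subunit, Atp4b, overlapped between groups. Slc4a2, the parietal cell chloride bicarbonate exchanger, differed by 0.57 ± 0.22, and Hdc, which makes histamine, had 11.39 and 11.48 against 11.15 and 10.26. Of 37 NF-kB targets and cytokines 19 had both 1 h pools above both 0 h pools (21.7% of all genes) and 7 below, with a median of 0.14. At an unadjusted p under 0.05 3 were higher (3.87% of all genes) and 0 lower, Nfkbia, Rela (0.26) and the chemokine Cxcl1, which had 6.18 and 6.19 against 7.38 and 7.29. Ptgs2, the inducible cyclooxygenase, had 6.32 and 6.36 against 6.49 and 7.07 (0.44 ± 0.31), and 0 of 17 prostaglandin genes passed an unadjusted p of 0.05.

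Of 14 EGF receptor ligands and receptors 1, the ligand Hbegf (0.43), was higher at an unadjusted p under 0.05. At that threshold, kept for the lists that follow, 3.87% of all genes were higher and 2.54% lower. Apoptosis regulators were split, 3 of 22 higher, the protective Bcl2l1 (0.53) and the killers Bak1 (0.49) and Bcl2l11 (0.37), and 2 lower, the protective Xiap (-0.73) and Bcl2a1 (-0.47). Of 20 chaperones of the endoplasmic reticulum 2 were higher, the degradation factors Herpud1 (0.69) and Syvn1 (0.44), and 2 lower, among them the chaperone Dnajb11 (-0.40). Of 16 heat shock genes 2 were higher, the factor Hsf1 (0.48) and Hsp90ab1 (0.33), and 1 lower, Chordc1 (-0.48). Of 16 serum response factor and YAP targets 1, Zyx (0.59), was higher, and of 19 enteric nerve genes Penk (0.39) was higher and Grp (-0.39) lower.

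No gene fell in the fit of 10 arrays. Atp8b1, a flippase that moves phospholipids between membrane leaflets, had 9.12 and 9.32 against 8.24 and 8.04, a difference of -1.08 ± 0.13 (adjusted p = 0.0902). A brighter probe set of Atp8b1 differed by 0.04. Ptf1a, a transcription factor of the pancreas and of inhibitory neurons, had 8.91 and 8.93 against 7.93 and 7.92, a difference of -0.99 ± 0.13 (adjusted p = 0.154). The medians of 18 pancreatic acinar markers in the 4 arrays ran from 7.04 to 7.38, with Prss1 between 5.99 and 6.23 and Cpa1 between 6.58 and 6.98, but Pla2g1b between 14.21 and 14.28 and Clps between 13.75 and 13.88. Of these markers 1 had both 1 h pools above and 4 both below the 0 h pools (21.7% and 20.0% of all genes). The part of acinar cells in the Ptf1a difference was not tested. Rsrp1, an arginine and serine rich nuclear protein, had 9.18 and 9.49 against 7.89 and 7.99, a difference of -1.39 ± 0.23 (adjusted p = 0.27), while a brighter probe set of Rsrp1 differed by -0.20. The lower probe sets of all 3 genes were called in the fit of 6 arrays.

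Tpr, a protein of the nuclear pore basket, had 7.80 and 8.42 against 6.67 and 6.84 (-1.35 ± 0.39), and Ddx6, an RNA helicase of P-bodies, had 9.67 and 10.11 against 8.68 and 8.50 (-1.30 ± 0.41). Rcor1, a corepressor subunit, differed by -0.86, Ubn2, a histone chaperone subunit, by -0.85, the RNA-binding Msi2 by -0.83, the microtubule protein Eml4 by -0.80, the chromatin remodeller Atrx by -0.80, Arid4a by -0.79 and Evi5 by -0.89. Upk1b, a uroplakin (-1.51), Wfdc21 (-1.22) and Gpm6a, a neuronal membrane glycoprotein (-1.14), completed the 15 lowest. Adjusted p for these genes ran from 0.54 to 0.871 in the fit of 10 arrays, and the fit of 6 arrays called Tpr, Ddx6, Rcor1, Ubn2, Eml4, Arid4a and Evi5 lower (adjusted p from 0.0349 to 0.0465).

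Of the 15 lowest genes 11 have other probe sets, and in 2 of the 11 at least 1 of these differed by -0.5 or more in the same direction. Those of Ddx6 differed by 0.082 and -0.365, those of Msi2 by 0.248, -0.071 and -0.409, and that of Ubn2 by 0.077. The same 15 probe sets also separated the 2 pools at 24 h: replicate 1 lay above replicate 2 for 13 of them, the median gap was 1.18 against 0.16 for all probe sets, and for 9 of them it exceeded the difference between 1 h and 0 h. For the 15 highest genes the median gap at 24 h was 0.31, and it exceeded the difference at 1 h for 0 of them. The 24 h pools also had the widest split in the GAPDH gap, 0.56 in replicate 1 and -0.06 in replicate 2. There the pool with the larger gap held the higher value for 13 of the 15. At 1 h the gaps were larger than at 0 h (0.29 and 0.10 against 0.01 and -0.06), and the values were lower. The part of RNA quality in the low values was not tested.

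Of the 4 called genes Chac1 fell again by 6 h. Between 1 h and 6 h 6 probe sets were called (0.0193%), 4 higher (0.0129%) and 2 lower (0.00644%), with 2329 (7.50%) at an unadjusted p under 0.05. When either 1 h or either 6 h array was left out 0 were called, with 1281 to 2014 at an unadjusted p under 0.05. Chac1 had 8.24 and 7.93 at 6 h, both under its 0 h values, and fell by 2.33 ± 0.17 from 1 h (adjusted p = 0.00886). Ddit4 had 7.87 and 8.41 at 6 h (-1.73 ± 0.25 from 1 h, adjusted p = 0.144) and Pim3 9.96 and 9.91 (-1.09 ± 0.14, adjusted p = 0.093). Rhob at 10.55 and 10.73 and Nr4a1 at 8.83 and 8.39 lay between their 0 h and 1 h values, at -0.74 and -0.73 from 1 h (adjusted p of 0.224 and 0.27).

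Other genes stood higher at 6 h than at 1 h. Egr1 had 9.82 and 9.90 at 6 h and Pdk4 had 11.29 and 11.11, differences from 1 h of 0.26 and 1.14 (adjusted p of 0.896 and 0.0684). Angptl4 was at 7.33 in both 1 h pools and at 8.91 and 9.12 at 6 h, a rise of 1.69 ± 0.12 (adjusted p = 0.00886). Mt2A rose by 2.59 ± 0.21 between 1 h and 6 h and Sphk1, which makes sphingosine 1-phosphate, by 1.03 ± 0.10, while Slc8a1, the sodium calcium exchanger, fell by 1.30 ± 0.13 (adjusted p from 0.0181 to 0.0479). These genes differed by at most 0.36 between 0 h and 1 h. List medians against the same 0 h pools were 0.56 at 1 h and 0.54 at 6 h for immediate early genes, 0.81 and 0.67 for glucocorticoid-induced genes, and -0.09 and -0.58 for mitosis genes; the comparisons share their controls.

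**Figure D4:**
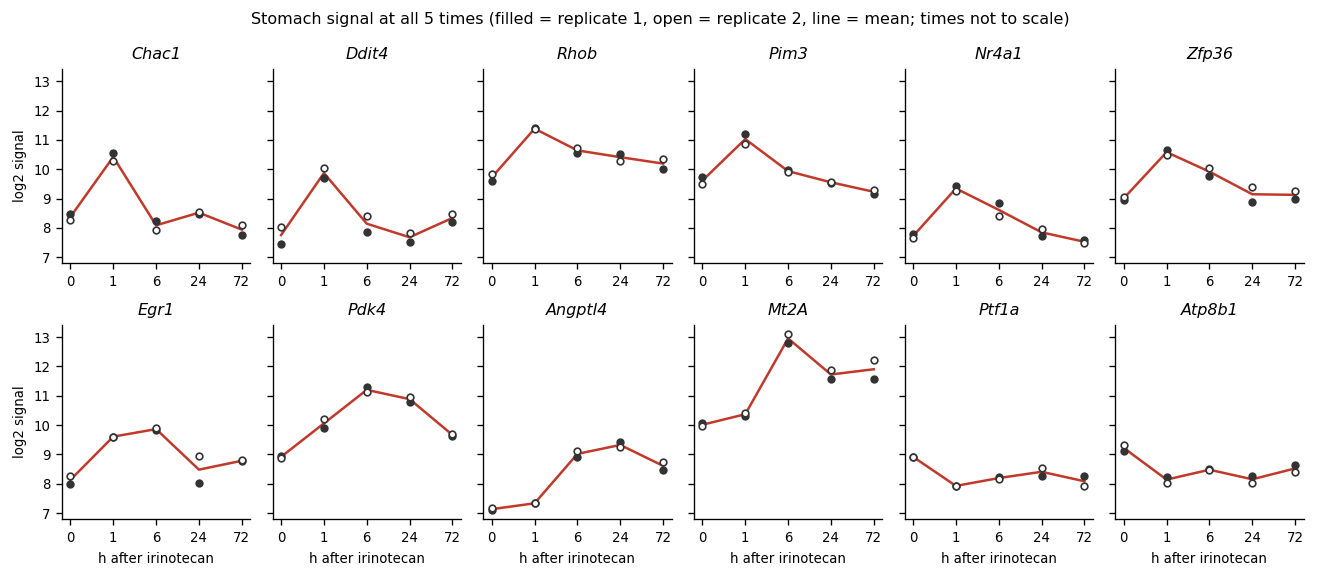
Log2 signal (y axis) in the stomach at all 5 times (x axis in h, not to scale) for 12 genes, with replicate 1 filled, replicate 2 open and a line through the means. Chac1 and Ddit4 are highest at 1 h, Mt2A and Pdk4 at 6 h and Angptl4 at 24 h.

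The stomach was then set against the jejunum and colon of the same rats, as the difference between responses at 1 h in 1 fit of 30 arrays that treats tissues as independent. Between stomach and jejunum 0 probe sets were called by limma (1262 at an unadjusted p under 0.05, 4.07%; smallest adjusted p 0.0562). Between stomach and colon 1 was called (0.00322%), with 3046 at an unadjusted p under 0.05.

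That probe set was Ptf1a, which differed by 0.11 ± 0.11 in colon, -0.001 ± 0.11 in jejunum and -0.99 in stomach. Its signal was between 6.22 and 6.43 in the colon arrays and between 6.51 and 6.56 in the jejunum arrays, well under the stomach's. At such low signals a fall in colon or jejunum could go unseen. The response was lower by 1.11 ± 0.16 in stomach than in colon (-1.11, adjusted p = 0.0268) and differed by -0.99 ± 0.16 from jejunum (adjusted p = 0.0602). Leaving out any 1 of the 4 stomach arrays ended this call.

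Chac1 differed by 0.50 ± 0.18 in jejunum (7.77 and 7.71 against 7.99 and 8.49) and by 0.70 ± 0.18 in colon (7.40 and 7.43 against 7.80 and 8.43). Its stomach response exceeded that of jejunum by 1.54 ± 0.26 (adjusted p = 0.0849) and that of colon by 1.35 ± 0.26 (adjusted p = 0.18). Rhob differed by 0.66 in jejunum and rose by 0.90 ± 0.16 in colon (adjusted p = 0.0219), and Nr4a1 differed by 0.37 and 0.69 and Pim3 by 0.42 and 0.29. The stomach's excess for these 3 genes ran from 0.76 to 1.25, with adjusted p from 0.3 to 0.718. Ddit4 rose by 1.59 ± 0.23 in jejunum (adjusted p = 0.0131) and by 1.16 ± 0.23 in colon (adjusted p = 0.0407), both in the fit of 30 arrays. That fit also called the stomach difference of 2.12 (adjusted p = 0.000197), which the fit of 10 arrays did not. Its stomach response differed by 0.53 ± 0.33 from jejunum and by 0.95 ± 0.33 from colon, neither called.

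A few genes leaned the other way between tissues. Stat3, a transcription factor of cytokine signalling, differed by 0.48 in stomach and fell by 0.56 in colon (difference 1.03 ± 0.17, adjusted p = 0.0786), though a brighter probe set of Stat3 differed by -0.47 in stomach. Sp2 had a difference of 0.89 ± 0.15 from colon (adjusted p = 0.0786), and Prkaca, the catalytic subunit of protein kinase A, 0.94 ± 0.18 from jejunum (adjusted p = 0.183). In stomach Prkaca differed by 0.76 ± 0.11 and was called in the fit of 6 arrays. List medians at 1 h in jejunum and colon were 0.45 and 0.32 for glucocorticoid-induced genes, 0.23 and 0.24 for immediate early genes and 0.08 and 0.24 for cAMP targets. At an unadjusted p under 0.05 the response differed between stomach and jejunum for 7 of 19 cAMP targets, 2 of 24 glucocorticoid-induced genes and 6 of 27 immediate early genes (4.41% of all genes). Between stomach and colon it differed for 6, 8 and 6 of them (10.1% of all genes).

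**Figure D5:**
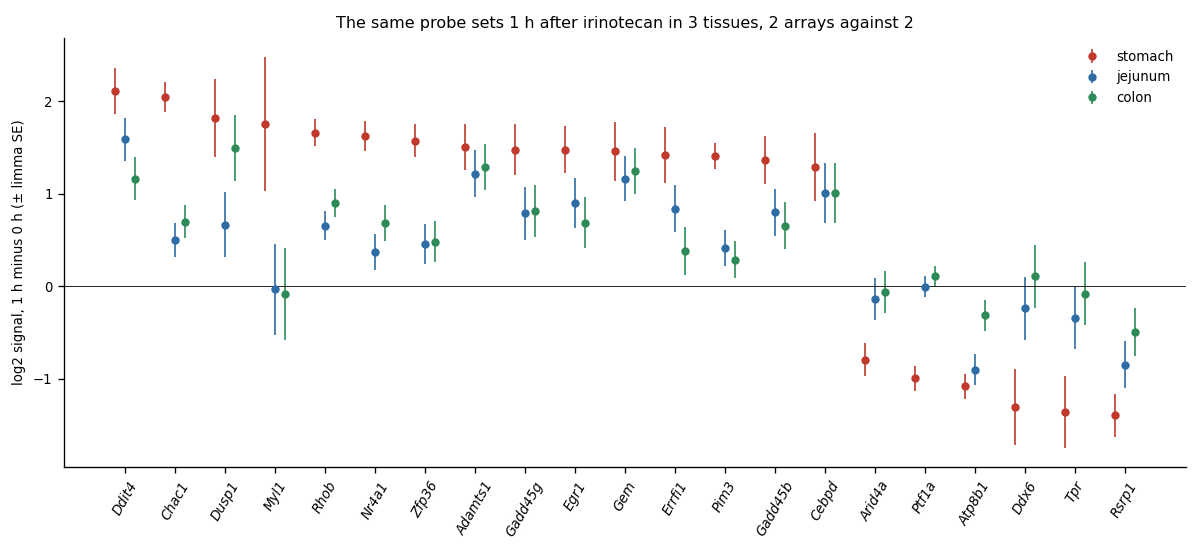
Difference in log2 signal between 1 h and 0 h (y axis, ± limma SE) for the 15 highest and 6 of the 15 lowest stomach genes (x axis) in stomach (red, fit of 10 stomach arrays), jejunum (blue) and colon (green, both from the fit of 30 arrays). Chac1 lies at 2.05 in stomach against 0.50 and 0.70, the error bars of Gem overlap across the 3 tissues, and Ptf1a lies at -0.99 in stomach and near 0 in jejunum and colon.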

How the data were processed

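The values are log2 signals that the authors deposited, made with RMA per the submitters' processing notes (version not given in the sources used here). The 57 control probe sets of the array's 31099 were not tested. A gene symbol came from the platform annotation (20826 probe sets with 1 symbol, 436 with several, 9780 with none), and a gene in a list was taken by its brightest probe set over 10 stomach arrays.

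The 10 stomach arrays, 5 groups of 2, were fitted with limma 3.58.1 under R 4.3.3, p was adjusted by Benjamini-Hochberg over 31042 probe sets, and the threshold was 0.05. Differences between tissues were contrasts in 1 fit of 30 arrays. In simulated data the test of stomach 1 h against 0 h found 87% of 100 planted 2-fold changes, with 2 false calls. The simulated noise was independent and normal, at the variances of the fit itself. It held no differences shared by many probe sets of a pool, so 87% need not hold for these arrays.

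Genes named are those called and the 15 highest and 15 lowest differences at an unadjusted p under 0.05 without overlap. Others are the members of each of 23 lists with the smallest p (up to 6 a list, not all described) and stated control genes. The rest are cell markers and leading genes of the tissue and 6 h comparisons. Cpa1, Prss1, Pla2g1b, Clps, Gkn1, Pgc, Atp4b and Myh1 are from the marker lists. The members and lists were chosen with earlier results of these data known. Gene length was planned as a comparison and not analysed here, since no genome build is named for the arrays' annotation. Alternatives were other sets of arrays, a filter on dim probe sets, quantile normalization, variance models, array weights, a replicate block, each array left out, and other probe sets.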

Additional observations from a re-analysis of the deposited data

Results flagged for a closer look

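The response of Ptf1a at 1 h differed between tissues: it was lower in stomach than in colon by the difference itself (-1.11, limma adjusted p = 0.0268), with both 1 h stomach pools below both 0 h pools. Its signal was low in the colon arrays, between 6.22 and 6.43, against 8.91 and 8.93 in the stomach at 0 h. A fall in colon could therefore go unseen. The call was lost when any 1 of the 4 stomach arrays or of the 4 colon arrays at 0 h and 1 h was left out, with quantile normalization, with the replicate block and in the fit of 8 arrays.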

How the results depend on the processing

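For stomach 1 h against 0 h, 5 probe sets were called as reported, 27 with only the 4 arrays compared, 77 with 30 arrays in 1 fit, 3 with quantile normalization, 8 with trend and robust variances, 33 with array weights and 70 with the arrays of 0, 1 and 6 h, and all 5 stayed among them except under quantile normalization (3). Leaving out each array in turn gave 0 to 0 calls. For 6 h against 1 h, 6 became 280 with 30 arrays, 10 with trend and robust variances and 18 with array weights, and 0 without each of the 4 arrays. For stomach against jejunum, 0 became 2 with dim probe sets dropped, 1 with quantile normalization, 21 with array weights and 1 in the fit of 8 arrays, and 0 to 2 with an array left out (2 without jejunum 1 h replicate 2). For stomach against colon, 1 became 13 with array weights and 0 with quantile normalization or in the fit of 8 arrays, and 0 to 4 with an array left out (4 without colon 0 h replicate 1, 2 without colon 1 h replicate 2). The cause was not tested.

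Nothing in the sources used here says that equal replicate numbers hold the same rats in different tissues. Pools of different times hold different rats, and no source says what equal numbers share there. Deviations of equal numbers correlated at 0.105 between stomach 0 h and 1 h, at -0.0337 between stomach and jejunum at 1 h, at 0.0414 between stomach and colon at 1 h and at 0.386 between jejunum and colon at 1 h. With the replicate block 9 probe sets were called at 1 h against 0 h and 0 for stomach against colon, and for 6 h against 1 h it called 7 (3 higher and 4 lower), 4 of the 6 reported among them.

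Leaving out an array turned the sign of small differences, for Mdm2 (-0.037 without 0 h replicate 1, -0.020 without 1 h replicate 2, range -0.037 to 0.141), Ccng1 (-0.026 without 0 h replicate 2, range to 0.227) and Slc8a1 (0.005 without 0 h replicate 2, 0.076 without 1 h replicate 1, range -0.101 to 0.076). It did so for the medians of mitosis (0.011, range -0.136 to 0.011) and replication genes (0.001, range -0.140 to 0.001) without 0 h replicate 1 and of irinotecan activation genes (-0.024, range to 0.110) without 1 h replicate 2. Other probe sets pointed the other way for Atp8b1 (0.038), Klf9 (-0.208), Klf2 (-0.045), Klf15 (-0.138), Cdkn1a (-0.009), Stat3 (-0.469), Ddx6 (0.082), Sesn1 (-0.067), Bcl2l11 (-0.032), Xrcc5 (0.056), Ubn2 (0.077), Fkbp5 (-0.074), Msi2 (0.248), Fos (-0.092), Mdm2 (-0.240 and -0.136) and Slc8a1 (0.067). Over all settings 1025 values of named genes kept direction and side of the threshold, 94 passed it anew and 18 no longer did. The number of arrays limits the precision, with a median SE of 0.122 over probe sets.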
